A study of Mus musculus with 15 samples.

Results

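STAT proteins are latent transcription factors that carry signals from cytokine receptors to the nucleus. The genes described here are Stat2, Stat3, Stat4, Stat5a, Stat5b and Stat6, found by gene symbol among the 25700 mouse genes of the count table. All 6 carried enough counts to be tested, as did 11883 genes in all. Membership was set by gene symbol and not by a cut on a measured value, though the genes were chosen with earlier results of these data known.

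RNA was sequenced from 15 cultures of bone marrow derived macrophages, 3 per group. Marrow cells from the femurs and tibias of mice aged 8 to 10 weeks were grown for 7 days in the macrophage growth factor M-CSF at 10 ng/ml, which every group shares. The groups then received IFN-γ at 10 ng/ml (termed M1), IL-4 at 10 ng/ml (termed M2), nothing (0 µM heme-albumin), or heme-albumin at 200 or 400 µM. Heme-albumin is hemin, an oxidised form of heme, carried on human serum albumin, and in the labels it yields a macrophage resembling one that has eaten red blood cells. Strain, sex and time under treatment are not given in the sources used here. Whether each culture had its own donor mouse is not given either, and p-values then describe the spread between cultures only. The 3 high-dose cultures carry 400, 401 and 402 µM in a treatment tag and 400 µM elsewhere, and 400 µM was used.

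When a cytokine binds its receptor, receptor-bound Janus kinases (JAKs) phosphorylate a STAT protein, which pairs with another STAT and moves into the nucleus. Each family member is known for certain receptors. Stat2 joins another STAT and Irf9 in ISGF3, the complex formed after type I interferon, Stat3 acts after cytokines of the IL-6 and IL-10 kind, Stat4 after IL-12, Stat5a and Stat5b after GM-CSF and other colony-stimulating cytokines, and Stat6 after IL-4 and IL-13. These libraries measure messenger RNA, so phosphorylation and protein were not measured.

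Total counts per library ran from 8427352 to 28587416. Levels are CPM, counts as a share of the library total, scaled by TMM, a correction for library composition, and changes are log2 fold changes ± SE from edgeR's quasi-likelihood test over all 15 libraries. A gene rose or fell where the Benjamini-Hochberg adjusted p over 11883 genes was under 0.05. The libraries followed their labels: Hmox1, which breaks down heme, was at 22400 to 28900 CPM in the 6 heme-albumin libraries, against 622 to 1040 CPM in untreated ones. Arg1, an IL-4 marker, was at 2980 to 4030 CPM with IL-4, and Gbp2, an interferon-induced GTPase, at 2990 to 5220 CPM with IFN-γ, against at most 2.3 and 21.2 CPM in untreated libraries. Among 10 macrophage markers, all were tested and summed to 13100 to 26700 CPM with IFN-γ, 14500 to 20700 with IL-4, 33200 to 38900 in untreated cultures, 46900 to 55700 at 200 µM and 42000 to 52100 at 400 µM. The single markers disagreed with IFN-γ, where 3 rose and 4 fell, and with IL-4, where 1 rose and 4 fell. At 200 µM 1 rose and 1 fell, and at 400 µM 0 rose and 2 fell, although the sums were higher. The 7 dendritic cell markers summed to 34.5 to 66.6 CPM with IFN-γ and 429 to 774 CPM with IL-4, against 9.79 to 16.2 CPM in untreated cultures. Of these 7, 3 were tested, and 2 rose with IL-4 and 1 with IFN-γ. In the IL-4 libraries 2 of the 7 had no counts. The 5 megakaryocyte and platelet markers summed to 13.4 to 35.1 CPM with IFN-γ, 83.7 to 112 CPM with IL-4 and 130 to 246 CPM untreated. At 200 µM they summed to 425 to 479 CPM and at 400 µM to 362 to 680 CPM. Only 3 of them were tested, and they disagreed: 1 rose and 1 fell at 200 µM, and 2 rose and 1 fell at 400 µM. With IFN-γ 2 of the 3 fell, and with IL-4 1. Of all genes 43.7% rose or fell with IFN-γ, 26.8% with IL-4, 23.4% at 200 µM and 25.4% at 400 µM. Itgax, an integrin chain, was 772, 428 and 656 CPM of the dendritic sum with IL-4, where Clec9a, a receptor of dendritic cells, was at 0, 0.053 and 0 CPM. The part of either list in the results was not tested. A pair of libraries stood apart when gene counts were compared within groups (chi-square over its degrees of freedom). IFN-γ replicate 3 reached 135 and 130 against the other IFN-γ libraries, which reached 44.7 between them, and heme-albumin 400 µM replicate 2 reached 62.4 and 49.0 against its group, where the other pair reached 10.8.

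The 6 genes lie on 3 chromosomes of the mouse build GRCm38. Stat2 (ENSMUSG00000040033, chr10:128270559-128292849, plus strand) and Stat6 (ENSMUSG00000002147, chr10:127642986-127660957, plus strand) share chromosome 10. Stat5b (ENSMUSG00000020919, chr11:100780731-100850724, minus strand), Stat5a (ENSMUSG00000004043, chr11:100859351-100885169, plus strand) and Stat3 (ENSMUSG00000004040, chr11:100885098-100939540, minus strand) follow each other on chromosome 11, where the ends of Stat5a and Stat3 overlap by 72 exon bases on opposite strands. Stat4 (ENSMUSG00000062939, chr1:51987148-52107189, plus strand) shares 1033 exon bases with the predicted gene Gm28177 on the same strand, so its counts are uncertain there, and Stat6 shares 40 exon bases with Nab2 on the opposite strand. Stat5a and Stat5b are close copies: 8.21% of the 50-base windows of Stat5a transcripts and 11% of those of Stat5b occur in the other gene, and such reads cannot be assigned with certainty. For 100-base windows the shares were 3.44% and 4.79%.

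Promoter windows of RefSeq (GRCm38.p6, 250 bases before to 50 after an annotated start) were searched on both strands for the core of the interferon-stimulated response element that ISGF3 binds (GAAA, any 2 bases, GAAA) and for the palindromes bound by STAT dimers (TTC and GAA around any 3 bases, or around any 4). The 6 genes had 9 windows. Of 32851 mouse windows, 3.44% held the first motif, 8.30% the second and 6.95% the third. Stat2 and the later of the Stat4 starts held matches, shown in capitals below, and the other 7 windows, those of Stat3, Stat5a, Stat5b, Stat6 and the first Stat4 start, held none. The windows shown are those with a match, and that of Stat3, which rose with Stat2 under IFN-γ.
Stat2, chr10:128270248-128270547, plus strand: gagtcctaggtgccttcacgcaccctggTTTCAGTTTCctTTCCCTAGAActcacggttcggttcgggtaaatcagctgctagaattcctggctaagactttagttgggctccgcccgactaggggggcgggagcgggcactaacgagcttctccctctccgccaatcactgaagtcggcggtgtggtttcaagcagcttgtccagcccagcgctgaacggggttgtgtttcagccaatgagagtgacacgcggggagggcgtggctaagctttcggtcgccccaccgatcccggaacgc
Stat4, later start, chr1:52007990-52008289, plus strand, inside the span of the gene: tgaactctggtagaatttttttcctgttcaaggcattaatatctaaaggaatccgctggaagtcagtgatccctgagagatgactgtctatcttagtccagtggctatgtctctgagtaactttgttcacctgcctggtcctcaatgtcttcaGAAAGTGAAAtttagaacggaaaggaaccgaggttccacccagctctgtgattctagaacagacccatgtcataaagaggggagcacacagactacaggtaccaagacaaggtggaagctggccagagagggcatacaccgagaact
Stat3, chr11:100939491-100939790, minus strand: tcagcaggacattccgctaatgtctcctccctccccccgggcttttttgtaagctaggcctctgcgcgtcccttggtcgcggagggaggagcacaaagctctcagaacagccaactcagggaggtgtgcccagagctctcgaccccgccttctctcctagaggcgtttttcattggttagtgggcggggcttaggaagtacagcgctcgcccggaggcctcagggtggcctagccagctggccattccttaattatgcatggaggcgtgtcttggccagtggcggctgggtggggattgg
In the Stat2 window, TTTCAGTTTC is the interferon core read on the other strand, beginning 222 bases before the start, and TTCCCTAGAA, 210 bases before it, is a palindrome with a spacer of 4, and the matches have no base in common. In the Stat4 window the capitals are the interferon core, GAAAGTGAAA, 97 bases before the start. A match describes letters only, and binding was not measured.

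Per base of transcript, Stat6 and Stat2 led the 6 genes in untreated macrophages. RPKM, which divides a read count by transcript length and library size, compares levels between genes of unequal length. There Stat6 was at 72.4 ± 3.81 RPKM, Stat2 at 21.1 ± 2.41, Stat3 at 10.2 ± 0.688, Stat5b at 9.05 ± 0.718, Stat4 at 4.99 ± 0.283 and Stat5a at 3.45 ± 0.0888 (SD, n = 3). Stat3 and Stat5b overlapped in that order (9.56 to 10.9 RPKM and 8.43 to 9.84 RPKM), while no other neighbours did. With IFN-γ the summed RPKM of the 6 genes was 172 to 196, with IL-4 89.5 to 96.5, in untreated libraries 113 to 127, at 200 µM heme-albumin 94.0 to 104 and at 400 µM 80.9 to 97.1. The mix changed with the sum. Stat2 took 34.3, 37.1 and 30.1% of that sum in the 3 IFN-γ libraries, 8.64, 9.73 and 9.90% with IL-4, 16.7, 18.7 and 16.8% in untreated libraries, 6.30, 5.86 and 5.34% at 200 µM and 7.45, 10.1 and 7.29% at 400 µM. Stat6 took 36.0 to 39.7% with IFN-γ and 58.7 to 67.4% in the other 12 libraries, so the RPKM ratio of Stat2 to Stat6 was 0.759 to 1.03 with IFN-γ, against 0.278 to 0.319 in untreated libraries.

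**Figure D1:**
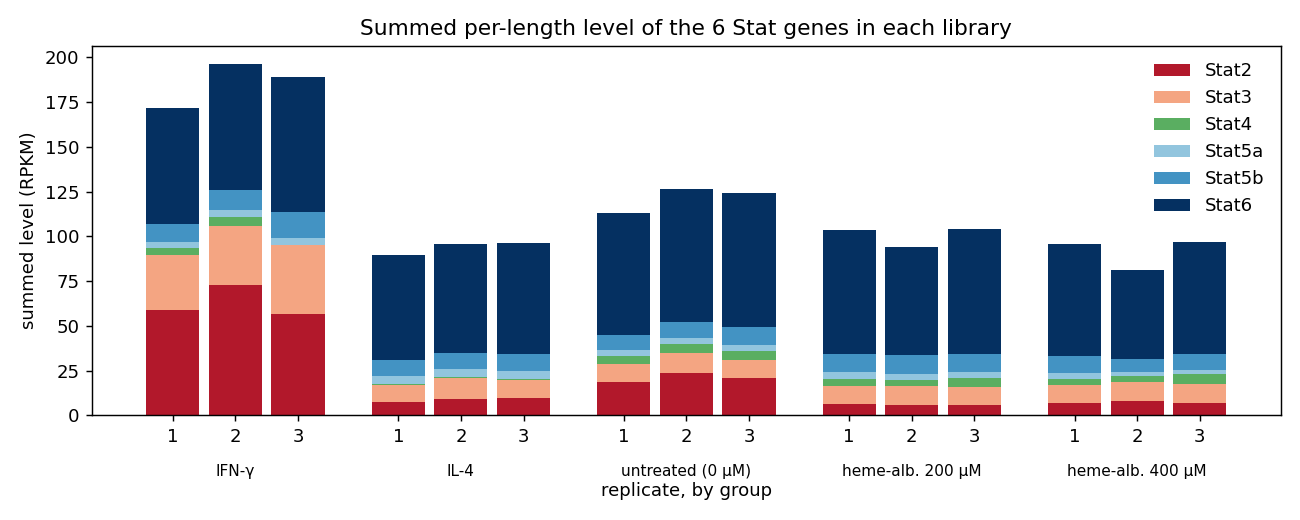
Summed RPKM of the 6 Stat genes in each of 15 libraries, stacked by gene (vertical axis, RPKM; horizontal axis, replicate within group). The IFN-γ bars, at 172 to 196 RPKM, are the tallest, and Stat2 and Stat3 fill more of them than of the untreated bars (113 to 127 RPKM).

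The highest group mean of Stat2 was 10.7 times the lowest, about as far apart as those of Stat4 (10.1 times). Its levels were 349, 432 and 337 CPM with IFN-γ, 45.8, 55 and 56.6 CPM with IL-4, 112, 140 and 123 CPM in untreated libraries, 38.6, 32.6 and 33.0 CPM at 200 µM heme-albumin and 42.2, 48.3 and 41.9 CPM at 400 µM. All IFN-γ libraries lay above, and all IL-4 and heme-albumin libraries below, the untreated ones. Stat2 rose with IFN-γ by 1.57 ± 0.13 (adjusted p = 7.08e-07), and fell with IL-4 by 1.25 on the log2 scale (SE 0.13, adjusted p = 1.1e-05), at 200 µM by 1.85 (SE 0.13, adjusted p = 1.56e-06) and at 400 µM by 1.51 (SE 0.13, adjusted p = 4.34e-06). In each of the 3 replicate numbers, which carry 1 date each, the direction was the same (1.45 to 1.64 for IFN-γ, -1.35 to -1.12 for IL-4, -2.11 to -1.54 at 200 µM and -1.56 to -1.41 at 400 µM). The 4 treatments share the untreated libraries, so these falls are not independent of each other.

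The order of Stat2 levels was IFN-γ, untreated, IL-4, 400 µM and 200 µM. IL-4 and 400 µM were neighbours without a call (400 µM minus IL-4 -0.25, 95% interval -0.53 to 0.03, adjusted p = 0.136). Between the doses Stat2 was at 44.1 ± 3.63 CPM at 400 µM and 34.7 ± 3.33 CPM at 200 µM, with no overlap, yet the change of 0.34 (interval 0.06 to 0.62) had an adjusted p of 0.297. Stat2 at 200 µM was also below IL-4, by -0.60 ± 0.13 (adjusted p = 0.00292).

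Stat3 moved with a single treatment. It was at 292, 315 and 362 CPM with IFN-γ, 89.5, 110 and 97.7 CPM with IL-4, 91.1, 104 and 97.2 CPM in untreated libraries, 96.0, 104 and 96.8 CPM at 200 µM and 94.6, 97.3 and 99.5 CPM at 400 µM. The IFN-γ libraries stood clear of the other 12, whose ranges overlapped. Stat3 rose with IFN-γ by 1.73 ± 0.10, or 3.31-fold (adjusted p = 3.23e-08). Against untreated cultures the other changes were 0.02 with IL-4 (interval -0.19 to 0.24), 0.02 at 200 µM (-0.20 to 0.24) and -0.01 at 400 µM (-0.22 to 0.21), with adjusted p-values of 0.903, 0.907 and 0.98.

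**Figure D2:**
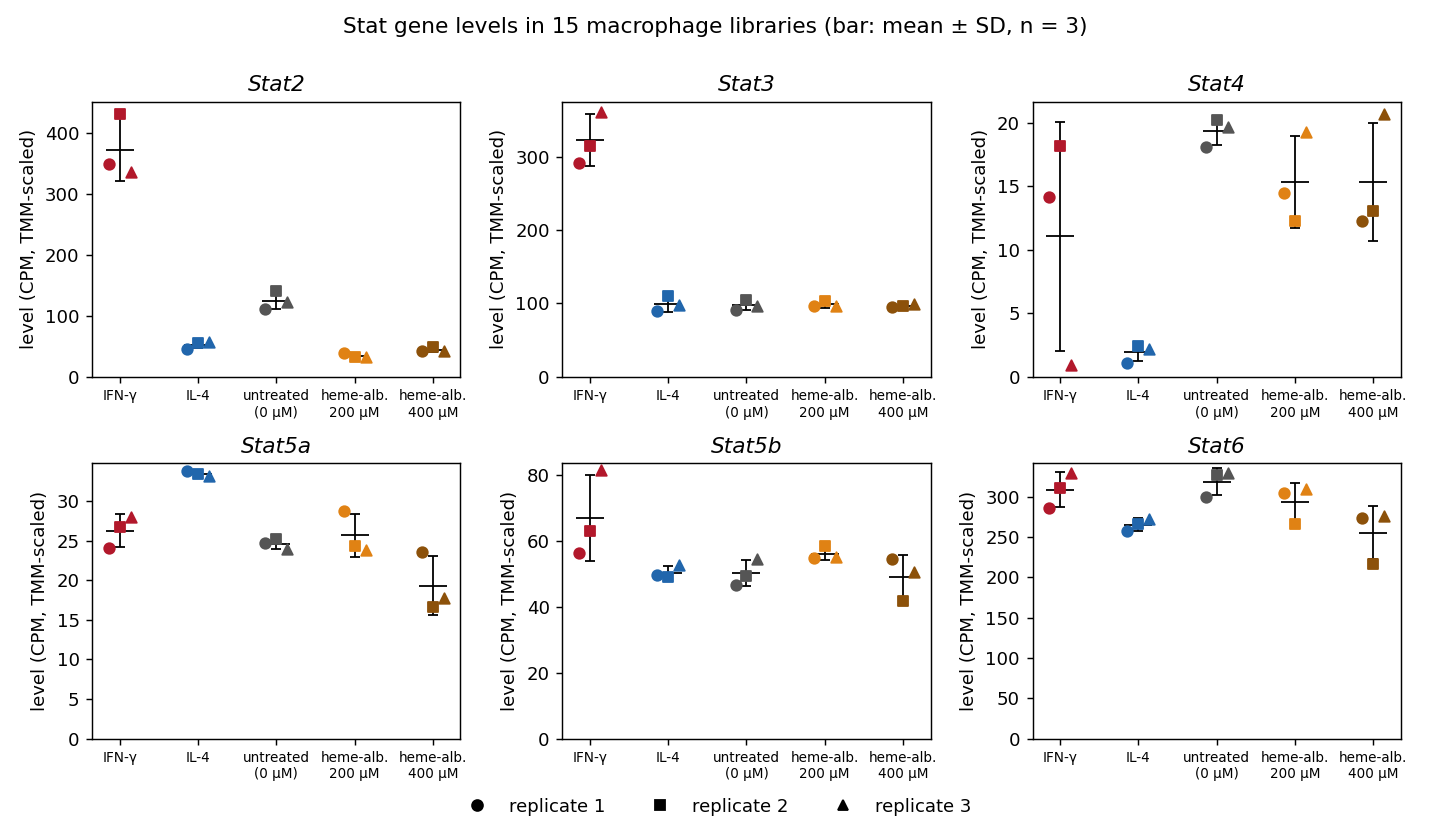
Level of each Stat gene in 15 libraries (vertical axes, TMM-scaled CPM from 0, with a scale of their own per gene; horizontal axis, group), with replicates as circles, squares and triangles and bars for the mean ± SD of 3. Stat2 and Stat3 are highest with IFN-γ, Stat4 is lowest with IL-4 apart from 1 IFN-γ library, and the Stat6 groups lie close together (means 255 to 319 CPM).

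Stat4, best known in T and NK cells, had its lowest group mean with IL-4. Its levels were 1.10, 2.44 and 2.19 CPM with IL-4, against 18.1, 20.2 and 19.7 CPM in untreated libraries, and it fell by 3.31 on the log2 scale (SE 0.67, adjusted p = 0.00239). At 200 µM it was at 14.5, 12.3 and 19.3 CPM and at 400 µM at 12.3, 13.1 and 20.7 CPM, ranges that overlap the untreated one. The changes there were -0.34 (interval -1.61 to 0.93) and -0.32 (interval -1.60 to 0.95).

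With IFN-γ the Stat4 libraries disagreed: 14.1 and 18.2 CPM in replicates 1 and 2 (241 and 408 counts) and 0.895 CPM in replicate 3 (13 counts), the library that stood apart. The change against untreated cultures was -0.79 ± 0.59 (adjusted p = 0.297), and without that library -0.26 ± 0.26 (adjusted p = 0.467). IL-4 against IFN-γ gave -2.52 ± 0.66 (adjusted p = 0.00606) with the library and -3.05 without it, while in replicate number 3 alone the difference was 1.29. That call was also lost when the fit held only the 6 libraries compared (-2.53, adjusted p = 0.0685), and with the replicate number as a block as well (-2.02, adjusted p = 0.179). Against IL-4, Stat4 was higher at 200 µM (2.97 ± 0.67, adjusted p = 0.00376) and at 400 µM (2.99 ± 0.67, adjusted p = 0.00314).

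Of 10 T and NK cell markers, 5 had no counts in any library (Cd3d, Cd3e, Trbc2, Cd8a and Ncr1). The list summed to 66.5 to 209 CPM with IFN-γ, 166 to 186 CPM with IL-4, 47.7 to 70.7 CPM in untreated libraries, 58.7 to 156 CPM at 200 µM and 110 to 445 CPM at 400 µM, and Il7r, which encodes the IL-7 receptor chain, was 164 to 184 CPM of it with IL-4 and 47.7 to 70.1 CPM in untreated libraries. Only 2 of the 10 were tested: 2 rose with IL-4, 1 at 200 µM and 2 at 400 µM, and 0 were called with IFN-γ. The shares of all genes that rose were 14.9% with IL-4, 14.0% at 200 µM and 14.7% at 400 µM, and 43.7% were called with IFN-γ. The 6 B cell markers summed to 0.583 to 0.735 CPM with IL-4, against 1.72 to 2.88 CPM in untreated libraries, and the 1 tested, Cd79b, fell. Pax5 had no counts in any library. The part of these markers in the Stat4 fall was not tested. In bulk RNA, fewer cells that carry a transcript and less of it per cell cannot be told apart.

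Stat5a was highest with IL-4. Its levels were 33.9, 33.4 and 33.2 CPM with IL-4, against 24.7, 25.2 and 24.0 CPM in untreated libraries, without overlap, and it rose by 0.44 ± 0.12, or 1.36-fold (adjusted p = 0.0162). The adjusted p was 0.0579, 0.0514 or 0.0651 without untreated replicate 1, 2 or 3 and 0.0543 without IL-4 replicate 3. With IFN-γ Stat5a was at 24.0, 26.8 and 28.0 CPM (0.09, interval -0.17 to 0.36), at 200 µM at 28.8, 24.3 and 23.9 CPM (0.06, interval -0.21 to 0.33) and at 400 µM at 23.6, 16.7 and 17.8 CPM. The change at 400 µM, -0.35 ± 0.13, missed the threshold (adjusted p = 0.0562) and passed it with DESeq2 (-0.37, adjusted p = 0.0279). Against IL-4, Stat5a fell at 400 µM by 0.79 on the log2 scale (SE 0.12, adjusted p = 0.000228).

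Stat5b, its neighbour and close copy, was higher with IFN-γ. It was at 56.3, 63.0 and 81.6 CPM with IFN-γ, 49.6, 49.0 and 52.7 CPM with IL-4, 46.7, 49.3 and 54.5 CPM in untreated libraries, 54.9, 58.5 and 55.2 CPM at 200 µM and 54.7, 41.9 and 50.7 CPM at 400 µM. The highest value came from IFN-γ replicate 3. Stat5b rose with IFN-γ by 0.42 ± 0.13 (adjusted p = 0.0201). Without IFN-γ replicate 3 the change was 0.25 (adjusted p = 0.0926), and the call was also lost without untreated replicate 1 (0.0778) or 2 (0.0626), with upper-quartile scaling (0.0558) and in fits of the 6 libraries compared without (0.0984) and with (0.0508) the replicate block. The RPKM ratio of Stat5a to Stat5b was 0.530, 0.530 and 0.489 in IL-4 libraries, against 0.411, 0.398 and 0.342 in untreated ones.

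Stat6, the factor downstream of the IL-4 receptor, varied least, with group means 1.25-fold apart at most. It was at 286, 311 and 330 CPM with IFN-γ, 257, 266 and 273 CPM with IL-4, 299, 327 and 330 CPM in untreated libraries, 304, 266 and 309 CPM at 200 µM and 274, 217 and 275 CPM at 400 µM. Both IL-4 and 400 µM libraries lay below all the untreated ones. Stat6 fell at 400 µM by 0.32 on the log2 scale (SE 0.11, adjusted p = 0.042), but the lowest library was the replicate 2 that stood apart, and without it the change was -0.22 (adjusted p = 0.147). That call was lost in 12 of 24 alternatives, 8 of which leave out 1 library. With IL-4 the change was -0.26 (interval -0.49 to -0.03, adjusted p = 0.0848). It passed the threshold in 6 of 24 alternatives, among them DESeq2 (-0.29, adjusted p = 0.024) and upper-quartile scaling (-0.29, adjusted p = 0.0477). Fits of the 6 libraries compared passed too, without (-0.28, adjusted p = 0.00837) and with (-0.28, adjusted p = 0.000586) the replicate block. With IFN-γ the Stat6 change was -0.05 (interval -0.27 to 0.18).

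**Figure D3:**
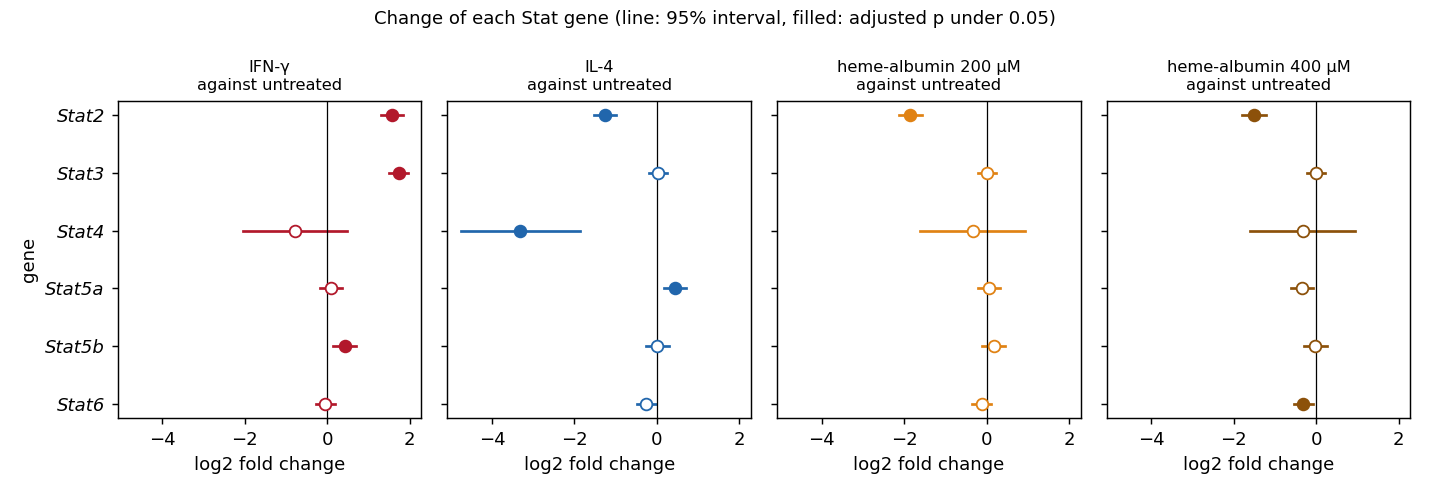
Log2 fold change of each Stat gene against untreated cultures (horizontal axes) for IFN-γ, IL-4 and heme-albumin at 200 and 400 µM, with 95% intervals from the edgeR fit; filled points passed an adjusted p of 0.05. Stat2 is filled in all 4 panels, to the right with IFN-γ (1.57) and to the left with IL-4 (-1.25) and heme-albumin (-1.85 and -1.51).

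Counted over the genes, IFN-γ against untreated cultures gave 3 rises (Stat2, Stat3 and Stat5b) among the 6, where 43.7% of all tested genes were called, 24.1% higher and 19.5% lower. With IL-4, 1 rose (Stat5a) and 2 fell (Stat2 and Stat4), where 26.8% of all genes were called. At 200 µM Stat2 fell, 1 of 6 against 23.4% of all genes, and at 400 µM Stat2 and Stat6 fell, 2 of 6 against 25.4%. Read against those shares, the counts alone do not set the 6 genes apart.

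Compared directly, IL-4 and IFN-γ cultures differed in 5 of the 6 genes (50.6% of all genes were called, 24.3% higher and 26.3% lower). With IL-4, Stat2 (-2.83 ± 0.13, adjusted p = 2e-09), Stat3 (-1.71 ± 0.10, adjusted p = 1.6e-08), Stat4 as given above and Stat5b (-0.41 ± 0.13, adjusted p = 0.0182) were lower than with IFN-γ. Stat5a was higher (0.35 ± 0.12, adjusted p = 0.0275). The Stat5b call was lost without IFN-γ replicate 3 (-0.24, adjusted p = 0.0895) and without IL-4 replicate 1 (0.0534) or 2 (0.0578), and that of Stat5a without any of IL-4 replicates 1, 2 and 3 (0.0667, 0.0613 and 0.0696) or IFN-γ replicates 1 and 2 (0.0847 and 0.051). Stat6 did not pass (-0.22, interval -0.45 to 0.01, adjusted p = 0.102).

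Heme-albumin cultures were set against the polarized ones in the same way. Against IFN-γ, 200 µM called 2 of 6, both lower (42.1% of all genes, 20.4% higher and 21.7% lower), Stat2 at -3.42 ± 0.14 and Stat3 at -1.71 ± 0.10, and 400 µM called 4 of 6 (42.9%), Stat2 at -3.08 ± 0.14, Stat3 at -1.73 ± 0.10, Stat5a at -0.44 ± 0.13 and Stat5b at -0.45 ± 0.13. With both libraries that stood apart left out, Stat5a was at -0.30 (adjusted p = 0.104) and Stat5b at -0.17 (adjusted p = 0.2). The Stat5b call at 400 µM was lost without either of them, heme-albumin 400 µM replicate 2 (-0.34, adjusted p = 0.0592) or IFN-γ replicate 3 (-0.28, adjusted p = 0.0619), and that of Stat5a without heme-albumin 400 µM replicate 3 (-0.38, adjusted p = 0.0547). Against IL-4, 200 µM called 3 of 6 (31.4% of all genes), with Stat2 and Stat5a lower and Stat4 higher, and 400 µM called 2 of 6 (40.2%, 20.5% higher and 19.7% lower), with Stat5a lower and Stat4 higher. The Stat5a difference at 200 µM from IL-4, -0.38 ± 0.12 (adjusted p = 0.029), was lost without heme-albumin 200 µM replicate 2 or 3 (0.1 and 0.106) and without any of IL-4 replicates 1, 2 and 3 (0.0766, 0.0672 and 0.067).

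Between 400 and 200 µM, edgeR called 0 of the 6 genes and 0 of 11883 genes (0%), with 1796 genes at an unadjusted p under 0.05, while DESeq2 called 13 genes. The Stat5a change was -0.41 (interval -0.68 to -0.14), that of Stat6 -0.20 (interval -0.43 to 0.03) and that of Stat4 0.01 (interval -1.27 to 1.30).

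The genes whose log2 CPM, centred on its mean over 15 libraries, lay closest to that of a Stat gene were found among 11370 genes. Around Stat2, whose own root-mean-square (RMS) deviation from its mean was 1.26 on the log2 scale, they were Ifi203 at an RMS difference of 0.169, Mndal at 0.225, Parp9 at 0.262, and Parp11 and Trim30d at 0.330. Ifi203 and Mndal belong to the Ifi200 family of DNA sensors and Trim30d to another family of close copies, so reads of these genes are uncertain. The interferon core of the Stat2 promoter was also found in both Mndal windows, in 1 of 2 windows of Ifi203 and of Parp11 and in the single Trim30d window. Parp9 had no window in the table.

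Around Stat3 (own deviation 0.692) the closest genes were Inpp5b at 0.168, Rnf135 at 0.169 and Coa5 at 0.172. Around Stat4 (own deviation 1.51) the closest were farther away, with Stk26 at 0.638, Rhof at 0.646 and Aldoc at 0.669. The other 3 genes deviated little from their own means, so small distances to them mean little: Imp3, Rnps1 and Srsf4 at 0.120 to 0.124 from Stat5a (own deviation 0.282), Xab2, Atxn7l3 and Slc8b1 at 0.088 to 0.095 from Stat5b (0.210), and Axin1, Hp1bp3 and Dnttip1 at 0.067 to 0.082 from Stat6 (0.158).

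The kinases that activate STAT proteins rose with IFN-γ. All 4 JAK genes were called, where 43.7% of all genes were, with Jak2, the kinase of the IFN-γ and GM-CSF receptors, at 1.75 ± 0.17, Tyk2 at 1.19 ± 0.14, Jak3 at 1.15 ± 0.21 and Jak1 at 0.46 ± 0.12. The Jak1 call was lost in both fits of the 6 libraries compared (adjusted p up to 0.0755). Jak2 was at 104, 86.4 and 151 CPM with IFN-γ, 80.2, 62.9 and 74.6 CPM with IL-4 and 35.8, 35.6 and 30.0 CPM in untreated libraries. It rose with IL-4 too (1.10 ± 0.17, adjusted p = 0.000335), the 1 of 4 JAK genes called there (26.8% of all genes), against 3 when only the 6 libraries compared were fitted. With heme-albumin 0 of 4 were called at either dose, where 23.4 and 25.4% of all genes were called at 200 and 400 µM. The changes of Jak2 were 0.00 ± 0.17 at 200 µM and 0.15 ± 0.17 at 400 µM.

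With IFN-γ, 6 of 7 tested chains for IL-4, IL-13 and related cytokines rose, where 24.1% of all genes rose. Among them were Il4ra, the chain that recruits Stat6 (1.70 ± 0.16), Il13ra1 (1.86 ± 0.18) and the common gamma chain Il2rg (1.79 ± 0.14). With IL-4, 2 rose and 4 fell, where 26.8% of all genes were called. Here Il4ra (-0.65 ± 0.15), Il13ra1 (-2.15 ± 0.19) and Il2rg (-0.69 ± 0.13) were lower than untreated. At 200 µM 1 of the 7 fell, Il21r (-1.5 ± 0.48), where 23.4% of all genes were called. That count was 2 without IFN-γ replicate 1 or 3, and 0 without untreated replicate 1 or heme-albumin 200 µM replicate 1 or 2. At 400 µM Il21r fell (-2.31 ± 0.50) and Il7r rose (2.04 ± 0.55), where 25.4% of all genes were called. The count of 2 was 1 without untreated replicate 1 or 3 or heme-albumin 400 µM replicate 2. Il7r was at 110, 444 and 135 CPM at 400 µM, and without its replicate 2, the library that stood apart, the change was 1.14 (adjusted p = 0.111).

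Il12rb1, a chain of the IL-12 receptor upstream of Stat4, was at 239 ± 98.1 CPM with IFN-γ and 0.807 ± 0.328 CPM untreated (8.11 ± 0.39), and rose with heme-albumin at 200 µM (2.79 ± 0.41) and 400 µM (2.46 ± 0.42). Its partner Il12rb2 rose with IFN-γ by 1.66 ± 0.41, so 2 of 2 tested chains of that list rose there, beside 24.1% of all genes. The Il12rb2 call was lost in the blocked fit of the 6 libraries compared (adjusted p = 0.0918). With IL-4 none of the 2 was called (26.8% of all genes were), where Il12rb2 was at -0.98 ± 0.41 (adjusted p = 0.0948). With heme-albumin 1 of the 2 rose at either dose (23.4 and 25.4% of all genes were called at 200 and 400 µM). Without IFN-γ replicate 3 the count was 1 with IL-4 and 2 at 200 µM.

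Among receptors of the colony-stimulating kind, 3 of 5 tested rose with IFN-γ, 4 with IL-4, 2 at 200 µM and 3 at 400 µM. The shares of all genes that rose were 24.1, 14.9, 14.0 and 14.7% in the same order. Csf2ra, the GM-CSF receptor chain, rose with IL-4 (1.12 ± 0.23), at 200 µM (1.22 ± 0.23) and at 400 µM (0.85 ± 0.23), and its signalling partner Csf2rb rose in all 4 comparisons (1.59 ± 0.39 with IFN-γ, or 0.79 without IFN-γ replicate 3, 2.29 ± 0.40 with IL-4, 1.23 ± 0.39 at 200 µM and 1.58 ± 0.39 at 400 µM). Csf2rb and Csf2rb2 are close copies, so their reads are uncertain. At 200 µM the count was 1 without any of untreated replicates 1, 2 and 3 or heme-albumin 200 µM replicates 2 and 3, and at 400 µM it was 1 without untreated replicate 1. The Csf2rb call at 200 µM was lost in those 5 cases (adjusted p up to 0.162), and the Csf2ra call at 400 µM without untreated replicate 1 (0.06).

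Of 7 tested gp130 and IL-10 receptor chains, which signal through Stat3, 2 rose with IFN-γ (43.7% of all genes were called), among them Il10ra (1.24 ± 0.18). With IL-4, 3 rose and 2 fell (26.8%), with Il6st, the gp130 chain, at 1.15 ± 0.16, Il11ra1 at 2.17 ± 0.13 and Il10ra at -0.85 ± 0.18. With heme-albumin 0 of 7 were called at 200 µM (23.4%), and 1 fell at 400 µM (25.4%), Il11ra1 (-0.54 ± 0.13). The count at 400 µM was 2 without IFN-γ replicate 1 or 3 or heme-albumin 400 µM replicate 1. Il10rb, the other chain of the IL-10 receptor, is not in this list. It is counted with the interferon receptors below, where its falls are given.

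Of 5 tested chains of the interferon receptors, 1 rose and 2 fell with IFN-γ, 1 fell with IL-4 and at 200 µM, and 2 fell at 400 µM. The shares of all genes called were 43.7, 26.8, 23.4 and 25.4% in the same order. With IFN-γ Ifnar2 was at 0.56 ± 0.13, Ifnar1 at -0.49 ± 0.15 and the shared chain Il10rb at -0.38 ± 0.14. The count with IFN-γ was 1 without IFN-γ replicate 1 or 2 or untreated replicate 3. The Il10rb call was lost in 9 of 24 alternatives (-0.22 without IFN-γ replicate 1), that of Ifnar1 in the 3 just named and that of Ifnar2 in the fit of the 6 libraries compared (adjusted p = 0.0528). With IL-4 1 chain fell, Ifnar1 (-0.44 ± 0.15, adjusted p = 0.0498), a call lost in 12 of 24 alternatives, among them without any single untreated or IL-4 library, without IFN-γ replicate 1 or 2, heme-albumin 200 µM replicate 1 or 3, or heme-albumin 400 µM replicate 1. At 200 µM Il10rb fell (-0.56 ± 0.14), except without heme-albumin 200 µM replicate 2 (adjusted p = 0.0548). At 400 µM Ifngr1, which binds IFN-γ, was at 110 ± 23.5 CPM, against 204 ± 20.6 CPM in untreated libraries (-0.89 ± 0.17, adjusted p = 0.00203), and Il10rb was lower as well (-0.45 ± 0.14, adjusted p = 0.029). The second of these calls was not stable, since the count at 400 µM was 1 without any single untreated or 400 µM library.

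SOCS proteins block JAK and receptor in a feedback loop. Of 8 such genes, 4 rose and 2 fell with IFN-γ (43.7% of all genes were called), and 5 rose with IL-4 (26.8%). Socs1 was at 30.0, 74.6 and 75.5 CPM with IFN-γ, 23.6, 39.8 and 39.8 CPM with IL-4 and 0.704, 0.726 and 0.752 CPM in untreated libraries, a rise of 6.36 ± 0.47 with IFN-γ and 5.56 ± 0.46 with IL-4. Cish, a textbook Stat5 target, was at 56.0, 50.3 and 68.4 CPM with IL-4 and 0.640, 0.726 and 1.07 CPM untreated (6.20 ± 0.38), and rose by 1.95 ± 0.40 with IFN-γ. Socs2 had 248 counts over the 3 IL-4 libraries and none in untreated ones, at least 53.6-fold higher at a floor of 3 counts over the group.

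Socs3, induced by Stat3, was at 18.2, 20.6 and 53.1 CPM with IFN-γ and 1.60, 2.84 and 1.83 CPM untreated (3.85 ± 0.41). With heme-albumin it rose at 200 µM (1.47 ± 0.41, adjusted p = 0.0208) and did not pass at 400 µM (0.73 ± 0.44). Of the 8 genes, 1 rose and 1 fell at 200 µM (23.4% of all genes were called). None passed at 400 µM (25.4%), where Socs7 was at -0.29 ± 0.10 (adjusted p = 0.0569). The Socs3 call at 200 µM was lost without untreated replicate 1 or 3 or heme-albumin 200 µM replicate 2 (adjusted p up to 0.0944). The count of 2 at 200 µM was 0 without untreated replicate 1 or 3 or heme-albumin 200 µM replicate 2, 1 without untreated replicate 2 or heme-albumin 200 µM replicate 1 or 3, and 4 without heme-albumin 400 µM replicate 2. The count of 0 at 400 µM was 1 without IFN-γ replicate 2 or 3.

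Of 11 PIAS proteins and phosphatases, which restrain STATs and their kinases, 7 rose and 2 fell with IFN-γ (43.7% of all genes were called), 3 rose and 3 fell with IL-4 (26.8%), and 2 rose and 2 fell at either dose of heme-albumin (23.4 and 25.4% at 200 and 400 µM). The 6 calls with IL-4 became 3 without IL-4 replicate 2 or 3 or untreated replicate 1 or 2, and the 4 at 400 µM became 2 without untreated replicate 2. Ptpn1 (1.5 ± 0.16) and Ptpn2 (0.93 ± 0.11), phosphatases of JAKs, and Usp18, a brake on the type I interferon receptor, were among the rises. Usp18 was at 93.8, 130 and 79.9 CPM with IFN-γ, 16.2, 19.8 and 19.8 CPM with IL-4, 20.3, 36.5 and 22.5 CPM in untreated libraries, 3.01, 2.45 and 1.91 CPM at 200 µM and 4.71, 9.83 and 3.30 CPM at 400 µM. It rose by 1.93 ± 0.31 with IFN-γ and fell at 200 µM by 3.41 (SE 0.37) and at 400 µM by 2.19 (SE 0.34).

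Irf9, the DNA-binding partner of Stat2 in ISGF3, fell with IL-4 and heme-albumin as Stat2 did, in comparisons that share the untreated libraries. It was at 83.3, 97.0 and 95.4 CPM with IFN-γ, 25.6, 35 and 30.7 CPM with IL-4, 70.2, 78.8 and 70.4 CPM in untreated libraries, 32.7, 34.4 and 31.5 CPM at 200 µM and 38.7, 48.8 and 38.4 CPM at 400 µM. The change was 0.33 ± 0.12 with IFN-γ (adjusted p = 0.0436), a call lost in 16 of 24 alternatives (0.22 to 0.39, adjusted p up to 0.19), among them DESeq2, both other scalings and leaving out any of untreated replicates 1, 2 and 3, heme-albumin 200 µM replicates 1, 2 and 3, IL-4 replicate 3 or IFN-γ replicates 2 and 3. It was -1.27 ± 0.13 with IL-4, -1.15 ± 0.13 at 200 µM and -0.80 ± 0.13 at 400 µM. Of the 8 partners and coactivators, 7 rose and 1 fell with IFN-γ, where 43.7% of all genes were called. Nmi, a STAT-interacting protein, was at 1.58 ± 0.14 and the coactivator Ncoa1 at 1.09 ± 0.09. With IL-4, 1 rose and 2 fell (26.8% of all genes), and with heme-albumin 1 rose and 4 fell at 200 µM (23.4%) and 3 fell at 400 µM (25.4%). The 5 calls at 200 µM became 2 without untreated replicate 1 or heme-albumin 200 µM replicate 1 or 2, and 3 without its replicate 3.

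Textbook targets of ISGF3 had the directions of Stat2. Of 24 genes, 23 rose with IFN-γ, where 24.1% of all genes rose, with a median change of 2.00 beside 0.05 for all genes. With IL-4, 23 of 24 fell (12.0% of all genes; median -2.87 beside 0.00), at 200 µM 24 of 24 fell (9.48%; median -2.32 beside 0.02) and at 400 µM 22 of 24 fell (10.8%; median -2.03 beside 0.01). Leaving out any 1 library gave 22 to 23, 23, 24, and 22 to 23 calls in the 4 comparisons. The gene not called with IL-4 was Usp18. This list and the target lists below were written with earlier results of these data known. Their counts describe the listed genes and are no independent support.

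Ifi44 was the ISGF3 target of smallest p with IFN-γ, at 193 ± 13.3 CPM, against 4.60 ± 1.79 CPM untreated (5.35 ± 0.27), before Zbp1 (4.10 ± 0.25). Dhx58, a cytoplasmic RNA sensor, was at 177 ± 15.1 CPM with IFN-γ, 14.1 ± 1.12 CPM with IL-4, 61.9 ± 5.24 CPM untreated, 21.5 ± 0.436 CPM at 200 µM and 21.7 ± 2.50 CPM at 400 µM. Rsad2, the antiviral enzyme viperin, fell with IL-4 by 4.10 (SE 0.29), and Cmpk2, a nucleotide kinase, fell at 200 µM by 3.16 (SE 0.27) and at 400 µM by 3.08 (SE 0.28). In promoter windows, 10 of the 17 targets with a window held the interferon core that the Stat2 window holds. That count is per gene over 19 windows, while 3.44% of all mouse windows held the core.

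**Figure D4:**
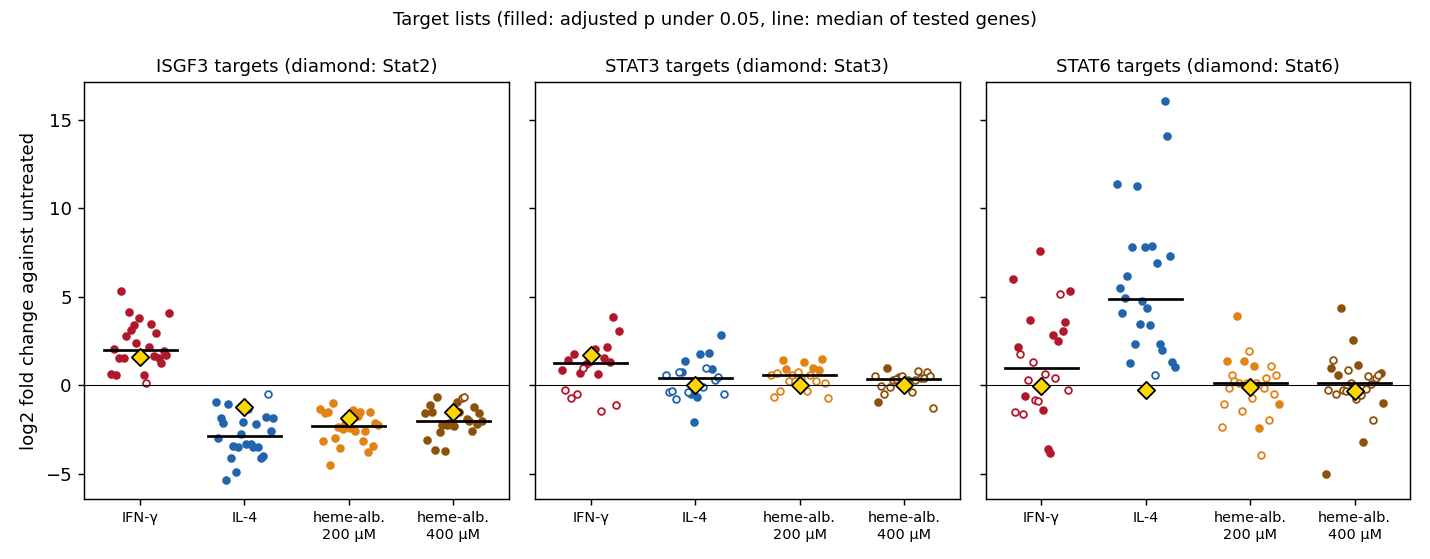
Log2 fold changes against untreated cultures (vertical axis) of 24 ISGF3, 20 STAT3 and 24 STAT6 target genes in 4 treatments (horizontal axes), with filled points past an adjusted p of 0.05, a line at the list median and a diamond for the Stat gene itself. The lists were written with earlier results of these data known. ISGF3 targets lie above 0 with IFN-γ (median 2.00) and below it in the other treatments, as Stat2 does, while STAT6 targets reach a median of 4.85 with IL-4 with the Stat6 diamond at -0.26; the highest points of that panel had 1 or 2 counts in all untreated libraries together, so their height is set by the fit.

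Targets of Stat3 rose with IFN-γ: 14 of 20 tested were called higher and none lower (median 1.24 beside 0.05 for all genes, of which 24.1% rose), among them Pim1, a survival kinase (2.15 ± 0.28), and Hif1a (1.20 ± 0.12). In the other treatments Stat3 itself was not called. Of its list, 6 rose and 3 fell with IL-4 (26.8% of all genes were called), and 2 rose and 1 fell at 400 µM (25.4%). At 200 µM 6 rose and 0 fell (23.4% of all genes were called, 14.0% higher). Cebpb, a transcription factor of inflammation, rose at 200 µM (1.44 ± 0.32). Its rise at 400 µM (0.96 ± 0.32, adjusted p = 0.043) was lost in 11 of 24 alternatives, namely without any single library other than the IFN-γ ones and heme-albumin 200 µM replicate 2. The count at 200 µM ranged with the library left out: 2 without untreated replicate 1 or heme-albumin 200 µM replicate 2, 3 without untreated replicate 3, and 12 without IFN-γ replicate 3. At 400 µM it was 0 without untreated replicate 2 or 3 and 6 without IFN-γ replicate 3.

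Targets of Stat6, a list also written with earlier results of these data known, moved with IL-4 although Stat6 itself did not pass there in the reported fit. Of 24 tested, 23 rose with IL-4 (median 4.85), where 14.9% of all genes rose. Of 3 tested dendritic cell markers, 2 rose there too, with the levels given above. Arg1, which breaks down arginine, was at 3550 ± 530 CPM with IL-4, against 1.28 ± 0.886 CPM untreated (11.37 ± 0.61), and Cdh1, E-cadherin, at 40.1 ± 5.96 CPM against 0.159 ± 0.0725 CPM (7.83 ± 0.31). With IFN-γ, 9 rose and 4 fell (43.7% of all genes were called), among them Tgm2, a transglutaminase, at 5.31 ± 0.32, and Arg1 at 6.01 ± 0.52. With heme-albumin, 4 rose and 2 fell at 200 µM (23.4%) and 6 rose and 3 fell at 400 µM (25.4%). The count at 200 µM is close to the share of all genes. Cdh1 rose at both doses (3.90 ± 0.36 and 4.34 ± 0.35), and Mrc1, the mannose receptor, fell at 200 µM by 2.44 (SE 0.60) and at 400 µM by 3.22 (SE 0.62). The count of 9 at 400 µM was 4 without untreated replicate 1, and 5 without untreated replicate 2 or heme-albumin 400 µM replicate 2 or 3.

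Of 12 Stat5 targets, 6 rose and 1 fell with IFN-γ (43.7% of all genes were called) and 3 rose and 2 fell with IL-4 (26.8%). The rises with IL-4 were Cish and Socs2, given above, and Pim1 (0.90 ± 0.27, lost without any untreated library or IL-4 replicate 1 or 3). Bcl6, a repressor, fell (-0.73 ± 0.14). With heme-albumin none was called at 200 µM (23.4% of all genes were), where Bcl2l1 was at -0.68 ± 0.27 (adjusted p = 0.082). At 400 µM Id1 rose (1.54 ± 0.53, adjusted p = 0.048) and Bcl2l1, an inhibitor of cell death, fell (-0.96 ± 0.27), where 25.4% of all genes were called. The Id1 call was lost in 12 of 23 alternatives, and that of Bcl2l1 without untreated replicate 2 or 3 or heme-albumin 400 µM replicate 2. The count with IFN-γ was 3 without untreated replicate 2, and that with IL-4 was 3 without IL-4 replicate 1 or 3 or untreated replicate 1 or 3. At 200 µM it was 1 without IFN-γ replicate 2 and 3 without IFN-γ replicate 3, and at 400 µM it was 0 without untreated replicate 2 or 3 and 1 without untreated replicate 1, any IL-4 or 400 µM library, IFN-γ replicate 2 or heme-albumin 200 µM replicate 3.

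Only 5 of 10 Stat4 targets known from T and NK cells were tested, and Ifng, the main one, had no counts in the IFN-γ, IL-4 or untreated libraries. With IFN-γ 3 of the 5 rose (43.7% of all genes were called), among them Il12rb2, given above. With IL-4, where Stat4 was lowest, 1 rose (26.8% of all genes were called), Furin, a protease (1.87 ± 0.18). At 200 µM 2 rose and at 400 µM 1 (23.4 and 25.4%). Il18rap, a chain of the IL-18 receptor, was at 37.5 ± 6.15 CPM at 400 µM, 27.3 ± 4.07 CPM at 200 µM and 4.65 ± 2.08 CPM untreated (2.98 ± 0.41 and 2.52 ± 0.41). The count with IL-4 was 4 without IFN-γ replicate 3 and 2 without IFN-γ replicate 1 or heme-albumin 400 µM replicate 2. At 200 µM it was 4 without IFN-γ replicate 3 and 1 without untreated replicate 1 or heme-albumin 200 µM replicate 2.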

How the data were processed

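Raw counts per gene of 15 stranded TruSeq libraries were used as deposited, in 1 table made by the authors. The submitters' processing notes name STAR 2.7.0e, SAMtools 1.9, featureCounts and the build GRCm38.p5; the annotation and strand setting are not given in the sources used here. Reads of overlapping genes cannot then be told apart with certainty. Symbols and positions came from GENCODE M21 (GRCm38), which matched 25587 of 25700 identifiers. No row lacked a gene, and no column was left unused. One further family member is not reported here.

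Counts were filtered with filterByExpr in edgeR 4.0.16 (R 4.3.3), which kept 11883 genes, and scaled by TMM (factors 0.886 to 1.12). The quasi-likelihood fit held all 15 libraries and 1 coefficient per group, and gave 10 comparisons, with Benjamini-Hochberg adjustment within each and a threshold of 0.05. RPKM used the union of exons as length. Levels close to a Stat gene were compared as log2 CPM with a prior count of 2. Totals of 8427352 to 28587416 counts set the precision, and a floor of 3 counts over a group stood in for a group without counts; floors cover counting error only. The test was tried on simulated counts first.

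The named genes were the 6 members, the 3 closest genes in level per member (5 for Stat2), up to 4 tested members of smallest p per pathway list and comparison, the JAK genes, Irf9, Socs1, Socs3, Cish and Usp18, and treatment markers. The members and the 14 pathway lists were chosen with earlier results of these data known. Targets of ISGF3, STAT3, STAT4, STAT5 and STAT6 are textbook lists and overlap in part.

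Replicates 1, 2 and 3 each carry their own date in the column names, whatever the group, although the sources used here do not say what the date marks. The replicates may therefore be paired, but the reported fit did not use the pairing. Its SEs, intervals and p-values are unpaired, and the replicate number entered only in the alternatives below. Deviations from group means correlated at a median of 0.144 over 30 same-number pairs of libraries (-0.168 to 0.474) and of -0.0688 over 60 others. Deviations within a group cancel out, so the second median follows largely from the first and is not separate evidence. For 14 of 15 libraries the best match was a library of the same number.

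As alternatives, DESeq2 1.42.0 replaced edgeR, edgeR took size factors from DESeq2 or the upper quartile, the filter was dropped or set to 5 CPM (3 libraries), the fit was limited to the 2 groups compared, the replicate number entered as a block, and single libraries were left out. After seeing the data, a fit without both libraries that stood apart was added, as was the block within the 2 groups compared. Python 3.11.15 with matplotlib 3.10.9 drew the figures.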

Additional observations from a re-analysis of the deposited data

How the results depend on the processing

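Of 25 Stat gene differences called, 16 kept their call in all 24 alternatives run (8 of Stat2, 4 of Stat3, 3 of Stat4 and that of Stat5a between 400 µM heme-albumin and IL-4), and 0 changed direction. The count of Stat genes called at 400 µM against untreated was 2, and 1 with no filter, with only the libraries compared, with those and the replicate block, or with both libraries that stood apart left out. For IL-4 against IFN-γ it was 5, and 3 with only the libraries compared or 2 with the block as well; for 400 µM against IFN-γ it was 4, and 2 in these fits and without both libraries that stood apart. The cause was not tested. Over single libraries left out, the counts ran from 1 to 3, 3 to 6 and 3 to 5. With the replicate block on all 15 libraries, the paired fit changed 1 call of a Stat gene: Stat6 at 400 µM against IFN-γ was -0.28 (adjusted p = 0.0387).

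Upper-quartile factors moved the median of all genes to 0.11 for 200 µM and 0.115 for 400 µM against IFN-γ (0.012 and -0.007 with TMM). They moved the share of calls that were higher to 42.4% for IFN-γ against untreated (55.2% with TMM), and to 59.6 and 61.3% for 200 and 400 µM against IFN-γ (48.4 and 48.0% with TMM). Between the doses DESeq2 called 13 genes and edgeR 0.

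Among differences not called, 43 of 840 values changed sign, and the largest of these was 0.27 in size. Under DESeq2, its size factors and upper-quartile factors Stat5b with IL-4 was -0.01, and under the first pair Stat3 at 200 µM was -0.01. Upper-quartile factors gave Stat5a with IFN-γ -0.02, Stat3 at 400 µM 0.01 against untreated and 0.01 against IL-4, and Stat5a 0.07 and Stat6 0.02 for 200 µM against IFN-γ, and the 5 CPM filter gave Stat3 at 400 µM 0.01. Without both libraries that stood apart Stat5b at 400 µM was 0.08 against untreated and 0.08 against IL-4, Stat6 0.07 against IL-4, and for 200 µM against IFN-γ Stat4 was -0.08 and Stat5a 0.02. Stat4 between the doses was -0.01 with the block in the libraries compared. Over single libraries left out, signs changed within these ranges. Against untreated they were -0.10 to 0.01 for Stat6 with IFN-γ, -0.06 to 0.09 for Stat3 and -0.05 to 0.05 for Stat5b with IL-4, -0.05 to 0.04 for Stat3 and -0.03 to 0.11 for Stat5a at 200 µM, and -0.06 to 0.03 for Stat3 and -0.11 to 0.07 for Stat5b at 400 µM. Between doses they were -0.05 to 0.01 for Stat3 and -0.27 to 0.21 for Stat4. For 200 µM against IFN-γ they were -0.08 to 1.01 for Stat4 and -0.12 to 0.02 for Stat5a, and for 400 µM against IFN-γ -0.06 to 1.02 for Stat4. For 400 µM against IL-4 they were -0.10 to 0.05 for Stat3, -0.12 to 0.06 for Stat5b and -0.11 to 0.05 for Stat6. Of 141 called changes of named pathway genes, 104 kept their call in all alternatives run and 0 changed direction.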
